A study of Mus musculus with 18 samples.

Results

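Endou, Ppp1r1c, Aqp11, Rapgef3, Arpp21, Plxnd1, Dyrk1b, Tctex1d1 and Nt5dc2 are 9 genes that were chosen because a signal of theirs was much lower in single-positive (SP) than in double-positive (DP) thymocytes of wild-type mice. All probes annotated to these symbols were taken, 25 of the 46237 probes on the array. Of the 25, 21 were detected often enough to be tested, among 26676 tested probes in all. The genes were selected on normalized log2 intensities of the wild-type arrays, so wild-type differences between populations are given below as a description, without a test. The arrays of the mutant mice took no part in that choice, and the tests between populations were made on them.

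Thymocytes were sorted from mice of strain C57Bl/6N, aged 4 to 6 weeks. The mutant mice (cKO) carried a deletion of exon 3 of Gpr177, now named Wls, made by a Cre recombinase under the control of FoxN1. FoxN1 is active in thymic epithelium, so it was the epithelium, and not the sorted thymocytes, that lost the gene. The controls were wild-type mice (wt). CD8 SP, CD4 SP and DP cells of each genotype gave 6 groups with 3 arrays each, 18 in all, on Illumina mouse BeadChips. Whether arrays of a group came from separate mice is not stated, so p-values measure the spread between these samples, which may be technical. Each label number stood for 1 chip that held all 6 groups, each at the same place on every chip, so place and group cannot be told apart. Pearson r between replicates of a group, over log2 values, was 0.848 to 0.908. The median intensity of an array lay between 133 and 273, and 41.5% to 46.0% of probes were detected.

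DP thymocytes carry both coreceptors, CD4 and CD8. They rearrange their T cell receptor alpha genes and are tested for recognition of self peptide and MHC on cortical epithelium. Cells that pass become CD4 SP or CD8 SP cells, move to the medulla and shut off much of the DP programme. The 9 genes have unrelated products. Endou encodes an endoribonuclease that cuts at uridines, and Rapgef3 (Epac1) an exchange factor that loads Rap GTPases when it binds cyclic AMP. Aqp11 is an aquaporin of intracellular membranes, and Nt5dc2 a protein with a 5'-nucleotidase domain. Ppp1r1c belongs to the inhibitors of protein phosphatase 1. Arpp21 is an RNA-binding phosphoprotein regulated by cyclic AMP in brain. Plxnd1 is the plexin receptor of the semaphorin Sema3e, Dyrk1b is a kinase linked to cell cycle arrest, and Tctex1d1 is a protein of the dynein light chain family.

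Promoter windows of 300 bases, from 250 before to 50 after a transcript's start, were taken from RefSeq (assembly GRCm38.p6) and matched 8 of the 9 genes by symbol, with 18 windows. The windows shown belong to genes with different patterns in the SP populations. Rapgef3 (chr15:97767617-97767916, minus strand) and Aqp11 (chr7:97738198-97738497, minus strand) kept signal in CD8 SP cells. Tctex1d1 (chr4:102978453-102978752, plus strand) and Plxnd1 (chr6:115994956-115995255, minus strand) were low in both SP populations. Dyrk1b (chr7:28179233-28179532, plus strand, the first of its 2 windows) was low in CD8 SP cells. Capitals mark matches, on either strand, to the motifs CAGCTG and CAGGTG of E proteins, AGGTCA of ROR factors, TGTGGT of RUNX factors and CTTTGA of TCF and LEF factors.
Rapgef3: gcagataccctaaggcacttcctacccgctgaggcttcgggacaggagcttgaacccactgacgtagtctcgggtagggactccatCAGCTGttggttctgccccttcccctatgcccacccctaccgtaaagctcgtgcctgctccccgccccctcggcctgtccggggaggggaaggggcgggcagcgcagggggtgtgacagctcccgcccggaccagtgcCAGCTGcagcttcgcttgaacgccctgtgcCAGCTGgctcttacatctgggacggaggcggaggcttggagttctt
Aqp11: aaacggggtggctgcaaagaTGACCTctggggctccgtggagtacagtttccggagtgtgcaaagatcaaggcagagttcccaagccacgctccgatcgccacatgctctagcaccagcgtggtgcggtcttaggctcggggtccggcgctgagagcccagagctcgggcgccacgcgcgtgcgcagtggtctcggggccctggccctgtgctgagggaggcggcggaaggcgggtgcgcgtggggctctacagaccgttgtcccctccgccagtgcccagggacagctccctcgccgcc
Tctex1d1: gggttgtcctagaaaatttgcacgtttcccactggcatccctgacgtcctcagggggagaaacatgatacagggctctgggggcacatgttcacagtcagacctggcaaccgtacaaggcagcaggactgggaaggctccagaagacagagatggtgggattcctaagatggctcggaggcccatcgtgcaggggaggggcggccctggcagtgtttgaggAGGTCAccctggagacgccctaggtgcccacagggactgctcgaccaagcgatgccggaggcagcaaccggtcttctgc
Plxnd1: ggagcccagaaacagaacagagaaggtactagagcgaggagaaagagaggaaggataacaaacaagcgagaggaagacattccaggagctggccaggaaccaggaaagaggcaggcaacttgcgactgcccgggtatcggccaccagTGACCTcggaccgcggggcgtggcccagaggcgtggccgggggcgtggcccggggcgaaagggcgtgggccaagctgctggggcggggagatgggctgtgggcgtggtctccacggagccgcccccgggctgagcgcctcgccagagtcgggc
Dyrk1b: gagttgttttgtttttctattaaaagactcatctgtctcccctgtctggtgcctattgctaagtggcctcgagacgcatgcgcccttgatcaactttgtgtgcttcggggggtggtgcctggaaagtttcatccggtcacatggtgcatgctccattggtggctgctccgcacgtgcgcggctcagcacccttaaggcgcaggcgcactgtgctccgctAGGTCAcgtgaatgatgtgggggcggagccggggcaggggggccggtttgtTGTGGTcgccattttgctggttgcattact
The Rapgef3 window held CAGCTG at 3 places, a motif found in 16.3% of the 32851 windows that were searched, which need not be every window in the table. Aqp11, Tctex1d1, Plxnd1 and Dyrk1b each held 1 match to AGGTCA, printed as TGACCT where it lies on the other strand. Of the 8 genes, 5 had AGGTCA in some window. Of their 18 windows 5 held it, and so did 16.3% of the searched windows. AGGTCA and CAGGTG share the letters AGGT, but the next letter differs, so 1 AGGT cannot match both. The counts of genes cover several windows for Arpp21, Dyrk1b and Nt5dc2, so counts of genes and shares of windows are not on the same footing. CAGGTG matched 3 of the 8 genes and 8 of the 18 windows (20.2% of the searched windows). TGTGGT matched 2 genes and 4 windows (16.8%), CTTTGA 1 gene and 4 windows (16%), and CAGCTG 2 genes and 4 windows. Of the 18 windows, 9 were of Arpp21, and some of these overlap. The matches describe letters in these windows, and binding was not measured.

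In mutant mice, CD8 SP cells kept a clear signal of Endou, Rapgef3 and Aqp11, while CD4 SP cells had little or none. Nt5dc2 was higher in CD8 SP than in DP cells and fell in CD4 SP cells. By their brightest probes Ppp1r1c and Arpp21 were low in both SP populations and lowest in CD4 SP cells. Plxnd1 and Tctex1d1 were low in both, and Dyrk1b was low in CD8 SP cells with most of its signal left in CD4 SP cells. By group means of the brightest probes the wt arrays showed the same order of populations in every gene but Tctex1d1, which no SP array detected. These groups of genes were formed after the values were seen. The values thus go against the name of DP-restricted genes for Endou, Rapgef3, Aqp11 and Nt5dc2 in CD8 SP cells and for Dyrk1b in CD4 SP cells. The arrays measure RNA of many cells, so fewer cells that express a gene and less RNA per cell cannot be told apart.

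**Figure D1:**
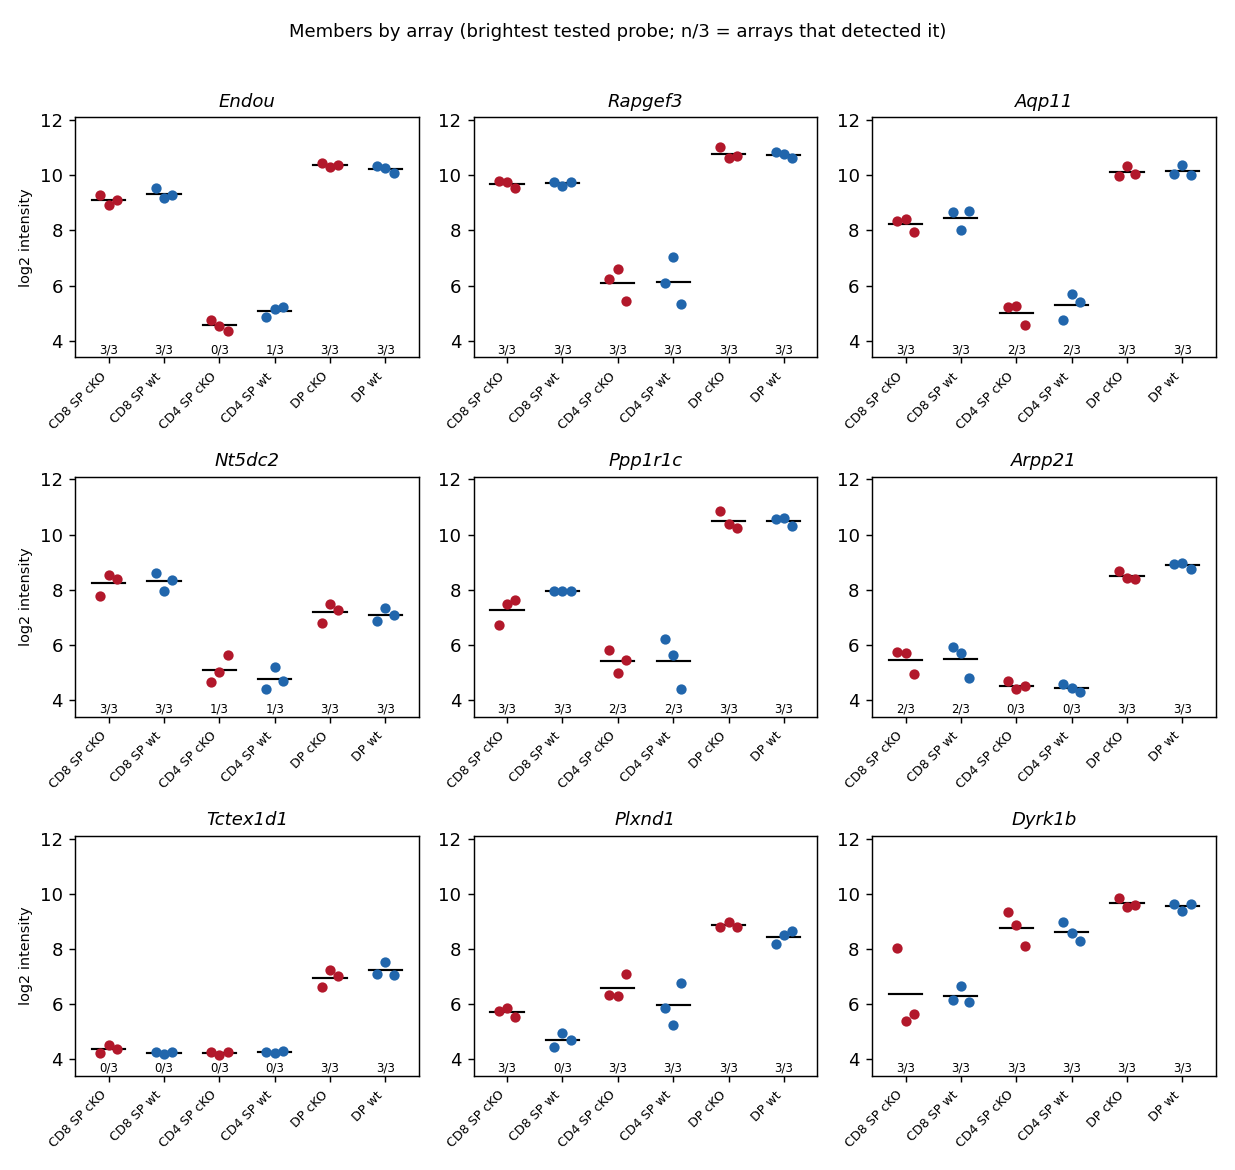
Log2 intensity of the brightest tested probe of each gene on each array (points) with the group mean (line), cKO in red and wt in blue; the fraction under each group counts arrays that detected the probe. Endou, Rapgef3, Aqp11 and Nt5dc2 stand high in CD8 SP and low in CD4 SP cells, Dyrk1b the other way round, and Tctex1d1 was detected in DP cells alone.

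Endou was the gene with the widest gap between the SP populations. Its single probe read 9.29, 8.94 and 9.12 (log2 intensity) in cKO CD8 SP cells, 4.76, 4.54 and 4.36 in cKO CD4 SP cells and 10.44, 10.32 and 10.39 in cKO DP cells. The wt arrays read 9.55, 9.18 and 9.29 in CD8 SP, 4.87, 5.16 and 5.24 in CD4 SP and 10.33, 10.28 and 10.07 in DP cells. The 3 populations did not overlap in either genotype, and of the 6 CD4 SP arrays only 1, a wt array, detected the probe. In cKO mice Endou fell in CD8 SP to 41.6% of its DP intensity (log2 difference -1.26 ± 0.21 SE, limma adjusted p = 0.00145). In CD4 SP it was at least 45.1-fold lower than in DP (limma adjusted p = 4.99e-11), which is at most 2.22% of the DP intensity. Such a bound sets the undetected group at the lowest detected intensity of each array, which was 4.79 to 4.99 on the log2 scale. CD8 SP cells thus had at least 18.8-fold more signal than CD4 SP cells (limma adjusted p = 2.87e-09). The bounds hold on the background-corrected scale. Without background correction cKO CD8 SP cells had 48.6% and cKO CD4 SP cells 12.3% of the DP signal, and CD8 SP cells had 3.95 times that of CD4 SP cells. In wt mice CD8 SP cells stood at 54.1% and CD4 SP cells at 2.84% of DP after correction.

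Rapgef3 is the next protein-coding gene to Endou on the chromosome in the RefSeq gene table of GRCm38.p6. Its probe read 9.80, 9.76 and 9.54 in cKO CD8 SP cells, 6.24, 6.59 and 5.43 in cKO CD4 SP cells and 11.04, 10.63 and 10.69 in cKO DP cells. The wt values were 9.76, 9.63 and 9.75 in CD8 SP, 6.08, 7.03 and 5.33 in CD4 SP and 10.85, 10.78 and 10.62 in DP cells. All 18 arrays detected it, and the populations did not overlap. In cKO mice CD4 SP cells fell to 3.84% of DP (log2 difference -4.70 ± 0.35 SE, limma adjusted p = 1.74e-07). CD8 SP cells stood at 47.0% of DP, a difference that missed the threshold (-1.09 ± 0.35 SE, limma adjusted p = 0.0783) and passed it with the chip as a block (0.0497). CD8 SP cells had 12.3 times the signal of CD4 SP cells (3.62 ± 0.35 SE, limma adjusted p = 1.21e-05). Without background correction cKO CD8 SP cells stood at 51.9% and cKO CD4 SP cells at 12.8% of DP, a ratio of 4.04 between them. In wt mice CD8 SP cells stood at 48.6% and CD4 SP cells at 4.11% of DP after correction.

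The genes on the outer sides of this pair had other patterns. Rpap3, beyond Endou, averaged 7.20 (log2 intensity) in cKO CD8 SP, 6.47 in cKO CD4 SP and 5.59 in cKO DP cells, and rose in CD8 SP relative to DP (log2 difference 1.62, limma adjusted p = 0.00654). Slc48a1, beyond Rapgef3, averaged 6.26, 6.26 and 5.78 in the same groups and was not called in any of the 3 comparisons among them.

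Aqp11 had 2 tested probes, and both gave the order of Endou and Rapgef3. The brighter one read 8.34, 8.42 and 7.95 in cKO CD8 SP cells, 5.24, 5.27 and 4.57 in cKO CD4 SP cells and 9.97, 10.35 and 10.03 in cKO DP cells. The wt arrays read 8.69, 8.01 and 8.71 in CD8 SP, 4.75, 5.71 and 5.42 in CD4 SP and 10.06, 10.38 and 10.01 in DP cells. No population overlapped with another, and 4 of the 6 CD4 SP arrays detected the probe. In cKO mice Aqp11 fell to 27.2% of DP in CD8 SP (log2 difference -1.88 ± 0.30 SE, limma adjusted p = 8.19e-04) and to 2.93% in CD4 SP (-5.09 ± 0.30 SE, limma adjusted p = 8.29e-09). The signal in CD8 SP was 9.30 times that in CD4 SP (limma adjusted p = 7.13e-06). Without background correction the cKO shares were 37.4% in CD8 SP and 16.05% in CD4 SP, a ratio of 2.33. The corrected wt shares were 31.1% in CD8 SP and 3.46% in CD4 SP.

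Nt5dc2 did not fall in CD8 SP cells. Its probe read 7.77, 8.54 and 8.40 in cKO CD8 SP cells, 4.65, 5.01 and 5.63 in cKO CD4 SP cells and 6.79, 7.49 and 7.27 in cKO DP cells. In wt mice it read 8.61, 7.95 and 8.35 in CD8 SP, 4.40, 5.21 and 4.71 in CD4 SP and 6.86, 7.32 and 7.10 in DP cells. Every CD8 SP array lay above every DP array, and every CD4 SP array lay below. In cKO mice CD8 SP cells had 2.08 times the DP signal (log2 difference 1.06, 95% confidence interval 0.39 to 1.73), which missed the threshold (limma adjusted p = 0.0557) and passed with the chip as a block (0.0370). CD4 SP cells fell to 23.6% of DP (-2.08 ± 0.32 SE, limma adjusted p = 4.73e-04). CD8 SP cells had 8.80 times the signal of CD4 SP cells (limma adjusted p = 1.83e-05). Without background correction the cKO shares of DP were 148% in CD8 SP and 64.4% in CD4 SP, a ratio of 2.30. The corrected wt shares were 231% in CD8 SP and 20.0% in CD4 SP.

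The gene Stab1, a scavenger receptor, overlaps Nt5dc2 in the RefSeq table, and its probe ran in parallel. Stab1 averaged 8.40 in cKO CD8 SP, 5.20 in cKO CD4 SP and 6.96 in cKO DP cells, and 8.38, 5.44 and 7.46 in the wt groups. It was higher in cKO CD8 SP than in cKO CD4 SP cells (log2 difference 3.20, limma adjusted p = 6.56e-04). Whether either probe reads RNA of the other gene was not tested, so the signal of Nt5dc2 is uncertain to that degree.

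Ppp1r1c and Arpp21 lost most of their signal in both SP populations. The brightest Ppp1r1c probe read 6.71, 7.47 and 7.64 in cKO CD8 SP cells, 5.81, 4.98 and 5.45 in cKO CD4 SP cells and 10.84, 10.40 and 10.25 in cKO DP cells. The wt arrays read 7.97, 7.97 and 7.94 in CD8 SP, 6.23, 5.64 and 4.41 in CD4 SP and 10.57, 10.61 and 10.29 in DP cells. The 3 populations did not overlap. In cKO mice it fell to 10.7% of DP in CD8 SP (log2 difference -3.23 ± 0.38 SE, limma adjusted p = 5.43e-05) and to 2.94% in CD4 SP (-5.09 ± 0.38 SE, limma adjusted p = 1.71e-07). Its signal was 3.63 times as high in CD8 SP as in CD4 SP (limma adjusted p = 0.00827), and this call was lost in a fit on the compared groups alone (0.0580). Without background correction the cKO shares of DP were 20.7% in CD8 SP and 13.6% in CD4 SP, a ratio of 1.52. The corrected wt shares were 17.3% in CD8 SP and 2.98% in CD4 SP.

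The brightest Arpp21 probe read 5.73, 5.72 and 4.95 in cKO CD8 SP cells, 4.68, 4.40 and 4.51 in cKO CD4 SP cells and 8.66, 8.42 and 8.40 in cKO DP cells. In wt mice it read 5.92, 5.70 and 4.79 in CD8 SP, 4.57, 4.43 and 4.30 in CD4 SP and 8.94, 8.96 and 8.76 in DP cells. It was detected on 4 of the 6 CD8 SP arrays and on no CD4 SP array. In cKO mice Arpp21 fell to 12.2% of DP in CD8 SP (log2 difference -3.03 ± 0.29 SE, limma adjusted p = 6.03e-06). In CD4 SP it was at least 12.2-fold lower than in DP (limma adjusted p = 1.26e-07). Without background correction the cKO shares of DP were 41.3% in CD8 SP and 34.2% in CD4 SP, so their size depends on that step. CD8 SP cells had at least 1.50 times the CD4 SP signal, which missed the threshold (limma adjusted p = 0.0819). It passed with the chip as a block (0.0420), without the third array of wt CD8 SP (0.0403) and without the third array of cKO CD8 SP (0.0393).

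Plxnd1 was the only one of the genes low in both SP populations whose mean was lower in CD8 SP than in CD4 SP in both genotypes. Its brighter probe read 5.75, 5.86 and 5.53 in cKO CD8 SP cells, 6.32, 6.30 and 7.10 in cKO CD4 SP cells and 8.80, 8.97 and 8.81 in cKO DP cells. The wt arrays read 4.45, 4.95 and 4.71 in CD8 SP, where none detected it, 5.85, 5.26 and 6.75 in CD4 SP and 8.16, 8.52 and 8.66 in DP cells. In cKO mice Plxnd1 fell to 11.3% of DP in CD8 SP (log2 difference -3.14 ± 0.33 SE, limma adjusted p = 1.57e-05) and to 20.5% in CD4 SP (-2.29 ± 0.33 SE, limma adjusted p = 2.50e-04). The difference of CD8 SP from CD4 SP missed the threshold (-0.86, 95% confidence interval -1.55 to -0.17 before adjustment, limma adjusted p = 0.189). Without background correction the cKO shares of DP were 36.1% in CD8 SP and 43.0% in CD4 SP. After correction wt CD8 SP cells had at most 8.68% and wt CD4 SP cells 17.7% of the DP signal.

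Tctex1d1 was detected on all 6 DP arrays and on no SP array. It read 4.22, 4.50 and 4.36 in cKO CD8 SP cells, 4.25, 4.17 and 4.27 in cKO CD4 SP cells and 6.61, 7.23 and 7.02 in cKO DP cells. On wt arrays the values were 4.25, 4.20 and 4.26 in CD8 SP, 4.28, 4.24 and 4.29 in CD4 SP and 7.07, 7.54 and 7.05 in DP cells. In cKO mice it was at least 4.08-fold lower in CD8 SP than in DP (limma adjusted p = 2.00e-06) and at least 4.20-fold lower in CD4 SP (limma adjusted p = 4.11e-07), on the background-corrected scale. Without background correction cKO CD8 SP cells had 54.4% and cKO CD4 SP cells 47.3% of the DP signal. Because this probe passed the filter through its DP arrays alone, it had to differ between the populations. The other Tctex1d1 probe was detected on no array and was not tested.

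Dyrk1b had the opposite order from Endou. Its brightest probe read 8.02, 5.38 and 5.66 in cKO CD8 SP cells, 9.34, 8.88 and 8.11 in cKO CD4 SP cells and 9.85, 9.54 and 9.58 in cKO DP cells. On wt arrays it read 6.13, 6.66 and 6.09 in CD8 SP, 8.99, 8.58 and 8.27 in CD4 SP and 9.63, 9.39 and 9.64 in DP cells. All 18 arrays detected it, the CD4 SP arrays lay below the DP arrays and above the CD8 SP arrays, and the first cKO CD8 SP array stood well above the other CD8 SP arrays. In cKO mice Dyrk1b fell to 10.1% of DP in CD8 SP (log2 difference -3.31 ± 0.50 SE, limma adjusted p = 5.82e-04; -4.14 without that array). CD4 SP cells stood at 54.2% of DP, which missed the threshold (-0.88, 95% confidence interval -1.94 to 0.17, limma adjusted p = 0.484). Without background correction the cKO shares of DP were 28.5% in CD8 SP and 63.3% in CD4 SP. The corrected wt shares were 10.4% in CD8 SP and 52.2% in CD4 SP.

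The difference of Dyrk1b in cKO CD8 SP from cKO CD4 SP cells was -2.42 ± 0.50 SE on the log2 scale (limma adjusted p = 0.00912). The difference stayed negative in all 27 alternatives. It was -2.14 without the first cKO CD4 SP array, -1.94 without the second cKO CD8 SP array and -2.08 without the third cKO CD8 SP array, and each of these missed the threshold narrowly (limma adjusted p = 0.0554, 0.0594 and 0.0521). It also missed in a fit on the compared groups alone (limma adjusted p = 0.182), and with the chip as a block it passed (0.00568). The differences within the 3 chips were -1.32, -3.50 and -2.45, all of 1 sign.

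Counted over probes, 14 of the 21 tested probes fell in cKO CD8 SP relative to cKO DP cells, and none rose (limma, adjusted p under 0.05). Over all tested probes 4.19% fell and 2.74% rose. The 14 stood for 7 of the 9 genes by their brightest probe, all but Rapgef3 and Nt5dc2. In cKO CD4 SP relative to cKO DP cells 16 of the 21 fell, against 2.64% of all tested probes, and 0 rose, against 2.09%. By brightest probe these were all genes but Dyrk1b. The median log2 difference of the 9 brightest probes was -2.59 in CD8 SP (-2.03 with undetected groups at their bound), against 0.01 over all tested probes. In CD4 SP it was -3.97 (-3.61 at the bounds), against 0.02. Of the 21 probes, 4 were detected in DP cells alone, so the filter had set the direction of their differences. Those of Tctex1d1, Arpp21 and Plxnd1 were called in both comparisons, so the counts of 14 and 16 include falls set by the filter. The Dyrk1b one was called in neither.

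Between the SP populations of cKO mice, 8 of the 21 probes were higher in CD8 SP than in CD4 SP, against 2.14% of all tested probes, and 1 was lower, against 1.79%. The higher ones stood for Endou, Rapgef3, Aqp11, Nt5dc2 and Ppp1r1c, and the lower one for Dyrk1b. By brightest probe the wt differences of CD8 SP from CD4 SP had the same sign in these 6 genes. They were 4.25 for Endou, 3.56 for Rapgef3, 3.17 for Aqp11, 3.53 for Nt5dc2, 2.53 for Ppp1r1c and -2.32 for Dyrk1b on the log2 scale.

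**Figure D2:**
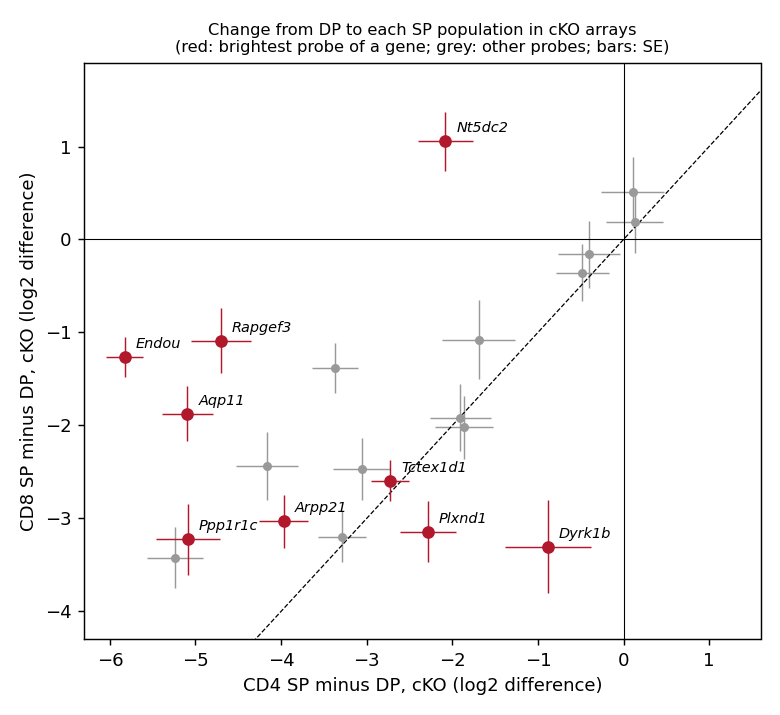
Log2 difference from cKO DP cells in cKO CD8 SP cells (vertical axis) and in cKO CD4 SP cells (horizontal axis), with standard errors, for the brightest probe of each gene (red) and the other tested probes (grey); the dashed line marks equal differences. Points above the line kept more signal in CD8 SP, with Endou farthest from it (-1.26 in CD8 SP and a fitted -5.83 in CD4 SP, where no cKO array detected it), and Dyrk1b, at -3.31 and -0.88, lies below.

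Genes with several probes did not always speak with 1 voice. Of 8 Ppp1r1c probes, 5 were designed on cDNA clones, and these carried the fall in cKO CD4 SP cells, all 5 called. Of these clone probes, 2 were detected on no CD4 SP array and were at least 28.5-fold and at least 14.2-fold lower there than in DP, and the other 3 differed by -5.09, -1.90 and -1.69 on the log2 scale. The call of the last, ILMN_1231233, was lost in 5 of 27 alternatives (limma adjusted p up to 0.114), without the filter or without 1 of 4 single arrays. Of the other 3, a probe on a predicted transcript was detected on all 18 arrays and stood at 0.13 ± 0.33 SE in CD4 SP and 0.19 ± 0.33 SE in CD8 SP. The 2 probes on the curated RefSeq transcript were detected on 3 arrays and on none. The large Ppp1r1c values thus belong to clone sequences annotated to the gene, and no large value came from a probe on its curated transcript. In CD8 SP against CD4 SP the clone probes disagreed. ILMN_2555562 differed by -0.02 in cKO and -0.89 in wt mice, and ILMN_1231233 by 0.61 and -0.18. The 2 clone probes undetected in CD4 SP were higher in CD8 SP in both genotypes, as the brightest was.

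The other 2 tested Arpp21 probes were detected on 6 arrays, all DP, and on 8 arrays. The first had to differ between the populations to pass the filter. In cKO mice they were at least 6.20-fold and at least 4.88-fold lower in CD8 SP, and at least 6.38-fold and at least 5.22-fold lower in CD4 SP, than in DP cells. The 3 probes correlated with each other at 0.90 to 0.96 over the 18 arrays, which share their populations and chips. A further 2 Arpp21 probes were detected on no array. The second Plxnd1 probe was detected in DP cells alone and was at least 2.46-fold lower in cKO CD8 SP and at least 2.53-fold lower in cKO CD4 SP. The second Aqp11 probe fell by 1.38 in CD8 SP and was at least 6.94-fold lower in CD4 SP.

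For Dyrk1b, the strong fall in CD8 SP was seen in 1 of 3 probes. The others were dim, detected on 5 and 9 of 18 arrays, and differed from DP by -0.36 and -0.16 in cKO CD8 SP cells and by -0.48 and -0.40 in cKO CD4 SP cells, with no call. In wt mice the dim probe seen on 5 arrays, ILMN_2705642, was detected on 3 of 3 DP arrays and on no SP array. It was at least 1.96-fold lower in wt CD8 SP and at least 1.99-fold lower in wt CD4 SP than in wt DP cells. This probe passed the filter through DP arrays alone, which set that direction. One of the 2 dim probes and the bright probe were designed on the same RefSeq transcript. The dim probes correlated with the bright probe at 0.37 and 0.41. Endou, Rapgef3 and Nt5dc2 had 1 probe each, so no second probe stands behind them.

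**Figure D3:**
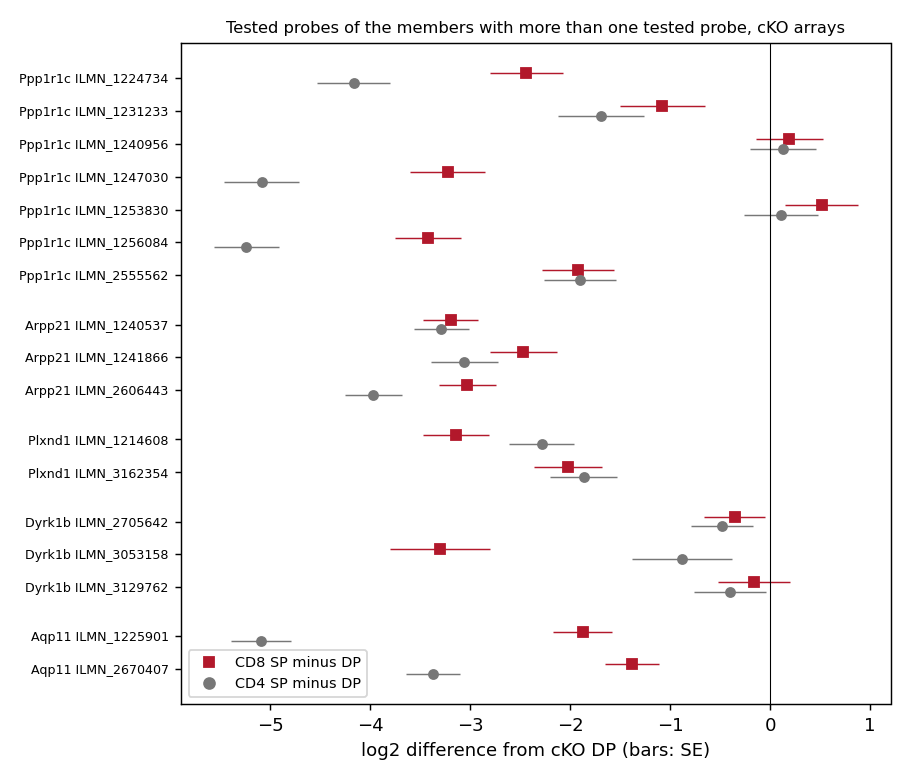
Log2 difference from cKO DP cells, with standard errors, in cKO CD8 SP (red squares) and cKO CD4 SP cells (grey circles) for each tested probe of the 5 genes with several tested probes. The Arpp21, Plxnd1 and Aqp11 probes all lie below 0, while 2 of 7 Ppp1r1c probes lie just above it and 2 of 3 Dyrk1b probes close to it.

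The deletion of Wls in the epithelium was the variable of the study. Comparing cKO with wt within a population, limma called 0 of the 21 probes in each of CD8 SP, CD4 SP and DP cells. Over all tested probes it called 0% in CD8 SP, 0% in CD4 SP and 0.00375% in DP. At an unadjusted p under 0.05 it counted 3 of the 21 in CD8 SP, 2 in CD4 SP and 2 in DP cells. Over all 26676 tested probes this cut-off counted 1213 in CD8 SP, 2039 in CD4 SP and 2292 in DP cells. The wt arrays had taken part in the choice of the genes.

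Among the brightest probes Plxnd1 in CD8 SP cells had the widest genotype difference. It averaged 5.71 ± 0.17 in cKO, where 3 of 3 arrays detected it, and 4.70 ± 0.25 in wt, where none did (SD, n = 3 each). That is at least 1.73-fold, and it was not called (limma unadjusted p = 0.00648, adjusted p = 1). The cKO arrays were higher on all 3 chips, by 1.31, 0.91 and 0.82. The second Plxnd1 probe was detected on no CD8 SP array of either genotype and averaged 4.20 in cKO and 4.33 in wt, so it shows no such difference. In CD4 SP cells Endou averaged 4.56 ± 0.20 in cKO and 5.09 ± 0.20 in wt, near the limit of detection (limma adjusted p = 0.588). In DP cells the brightest probes differed by -0.39 to 0.41 on the log2 scale, with a lowest limma adjusted p of 0.753.

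Some markers of other states were higher in CD8 SP than in CD4 SP cells, as Endou, Rapgef3, Aqp11 and Nt5dc2 were. The DP genes Rag1 and Dntt, which cut and extend receptor gene segments, were also kept in CD8 SP cells. Rag1 averaged 9.97 in cKO CD8 SP, 7.18 in cKO CD4 SP and 11.70 in cKO DP cells, and Dntt averaged 8.73, 4.73 and 9.52. Rag2, the partner of Rag1 in the recombinase, was detected on all 6 DP arrays and on none of the 12 SP arrays. Over the 4 measured DP markers the mean log2 level per array was 7.36 to 7.61 in cKO CD8 SP, 5.47 to 5.90 in cKO CD4 SP and 8.28 to 8.91 in cKO DP cells. In wt mice it was 7.40 to 7.65, 5.54 to 6.26 and 8.66 to 9.0005. Of the 4, 2 fell in cKO CD8 SP (Rag1 and Rag2) and 3 in cKO CD4 SP.

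Some genes of cycling cells were also higher in CD8 SP than in CD4 SP cells. Mki67, a marker of proliferating cells, averaged 9.65 in cKO CD8 SP, 7.44 in cKO CD4 SP and 10.06 in cKO DP cells, and Birc5 (survivin) averaged 9.38, 6.19 and 9.01. Of 5 measured cycling markers, 3 were higher in cKO CD8 SP than in cKO CD4 SP (Mki67, Top2a and Birc5), and 0 differed between cKO CD8 SP and cKO DP. Their mean log2 level per array was 7.53 to 7.70 in cKO CD8 SP, 5.65 to 5.78 in cKO CD4 SP and 7.11 to 7.63 in cKO DP cells. In wt mice it was 7.40 to 7.77, 5.89 to 6.23 and 7.50 to 8.12. The part of DP or cycling cells in the retained signal of Endou, Rapgef3, Aqp11 and Nt5dc2 was not tested.

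**Figure D4:**
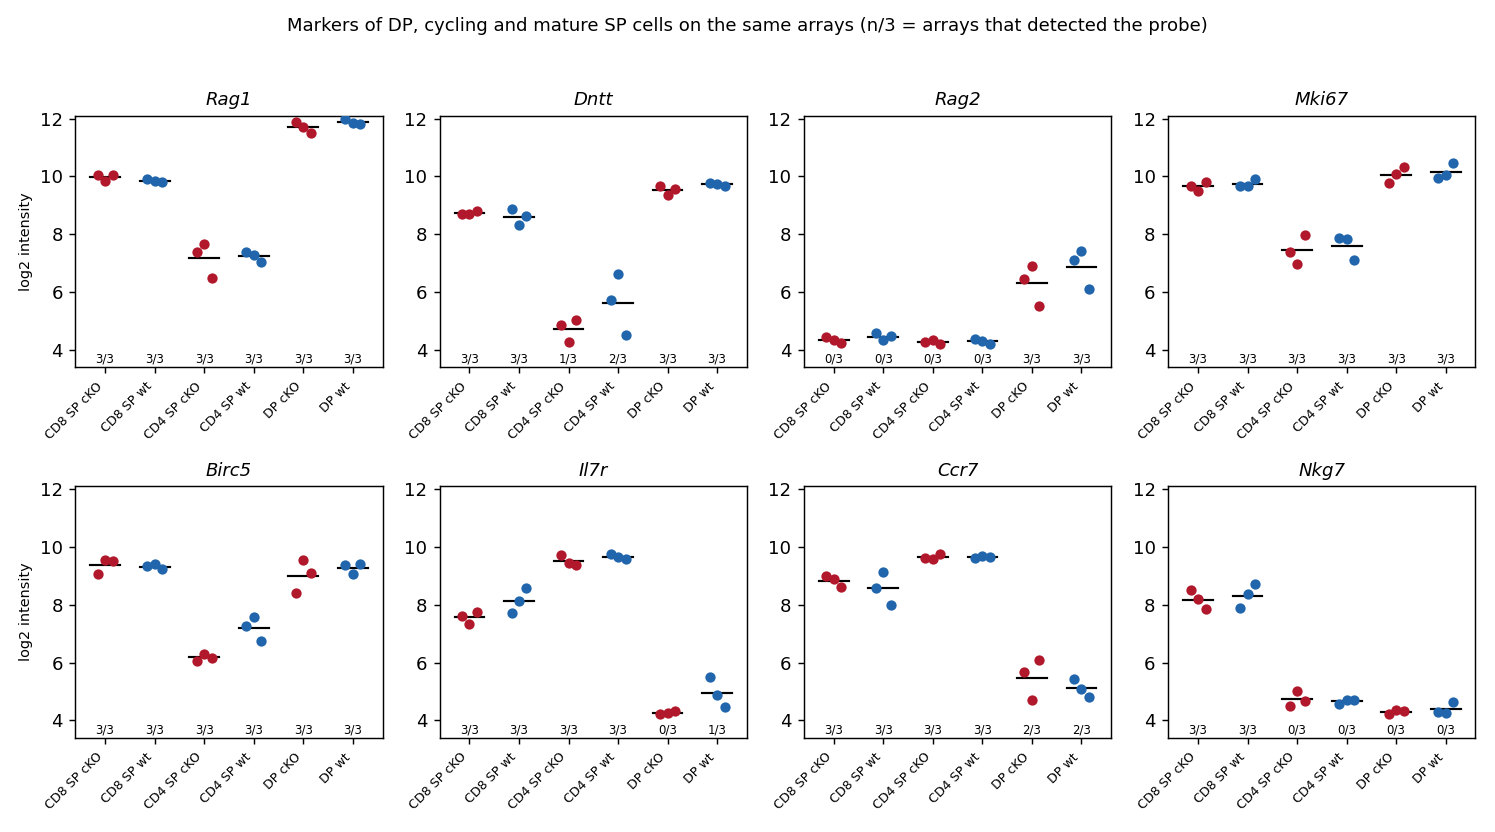
Log2 intensity of markers of DP cells (Rag1, Dntt, Rag2), cycling cells (Mki67, Birc5), mature SP cells (Il7r, Ccr7) and the CD8 lineage (Nkg7) on each array (points) with group means (lines), cKO in red and wt in blue. Rag1, Dntt, Mki67 and Birc5 are higher in CD8 SP than in CD4 SP cells, Rag2 was detected in DP cells alone, and Nkg7 in CD8 SP cells alone.

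The SP populations carried the lineage markers that were measured, 1 of 2 listed for each lineage. Of the sort genes, Cd4 was called lower in cKO CD8 SP and Cd8b1 lower in cKO CD4 SP than in cKO DP cells. Cd8a was not called in any of the 3 comparisons between cKO populations. Nkg7, a gene of cytotoxic cells, was detected on all 6 CD8 SP arrays and no other, and Cd40lg, the helper ligand, on all 6 CD4 SP arrays and no other. Il7r and Ccr7, which mark maturing SP cells, were higher in both cKO SP populations than in cKO DP cells. Klf2, also measured as a mature SP marker, was called higher than in cKO DP cells in cKO CD8 SP but not in cKO CD4 SP. Klf2 was not called between the cKO SP populations, and its difference there did not share the sign of Il7r and Ccr7. In wt mice all 3 were lower in CD8 SP than in CD4 SP by sign. Il7r averaged 7.57 in cKO CD8 SP and 9.52 in cKO CD4 SP cells, and was lower in CD8 SP (log2 difference -1.95, limma adjusted p = 3.94e-04), with 8.15 and 9.66 in the wt groups. Ccr7 averaged 8.84 in cKO CD8 SP and 9.65 in cKO CD4 SP cells (-0.81, limma adjusted p = 0.234). Of 3 measured markers of mature SP cells, 1 was thus lower in CD8 SP than in CD4 SP, the populations in which the members' signal differed, and its part in that was not tested. The measured markers of B cells (1 of 5 listed), macrophages and dendritic cells (1 of 6), erythroid cells (2 of 5) and thymic epithelium (2 of 6) gave 0 calls between the cKO populations.

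Over the 18 arrays, which share 3 populations, Endou correlated with Rapgef3 and Aqp11 at 0.98 each and with Nt5dc2 at 0.83 (Pearson r of log2 values). Ppp1r1c, low in both SP populations, correlated with Endou at 0.89, with Rapgef3 at 0.90 and with Aqp11 at 0.94, so these coefficients do not separate the groups of genes formed above. Arpp21 correlated with Tctex1d1 at 0.96 and with Ppp1r1c at 0.95. Dyrk1b stood apart, with -0.05 against Endou, 0.77 against Plxnd1 and -0.56 against Nt5dc2. These coefficients describe the differences between populations and carry no test.

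Among 11808 other named genes, those most like the mean of the 9 were Fbxl12, an F-box protein of ubiquitin ligases (r = 0.985), Rag1 (0.978), Tapt1 (0.976), Thy1, the pan-thymocyte surface protein (0.973), and Cux1 (0.969). Ifngr1, Marcks, Tubb2b, Dck and Ilvbl followed with 0.964 to 0.955. The gene most like Endou alone was Ly6d, a GPI-anchored surface protein (r = 0.990). Ly6d averaged 8.91 in cKO CD8 SP, 5.18 in cKO CD4 SP and 9.43 in cKO DP cells. Rapgef3 (0.982), Aqp11 (0.978), the histone gene H2bc6 (0.977) and Mns1 (0.976) came next.

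In cyclic AMP and Rap signalling 26 of 31 listed genes were measured. In cKO CD8 SP relative to cKO DP cells 3 of them fell, where 4.19% of all tested probes did, and 0 rose. These were the phosphodiesterase Pde4d (log2 difference -1.05, limma adjusted p = 0.00765), the exchange factor Rasgrp1 (-0.82, limma adjusted p = 0.0367) and the factor Creb1 (-0.71, limma adjusted p = 0.0457). In cKO CD4 SP 1 fell, where 2.64% of all tested probes did. This was the protein kinase A subunit Prkar2b (-1.24, limma adjusted p = 0.0391). In cKO CD8 SP against cKO CD4 SP, Prkar2b was the 1 gene called higher (1.76, limma adjusted p = 0.00491), where 2.14% of all tested probes were. The phosphodiesterases Pde4b and Pde4d were the 2 called lower there, where 1.79% of all tested probes were. The list's median difference there was -0.14, against -0.02 over all tested probes. Relative to DP the list's median difference was 0.15 in CD8 SP and 0.37 in CD4 SP, against 0.01 and 0.02 over all tested probes.

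Of 20 semaphorin and plexin genes, 16 were measured. In cKO CD8 SP relative to cKO DP cells 1 fell and 0 rose, where 4.19% of all tested probes fell and 2.74% rose. In cKO CD4 SP 2 fell and 2 rose, where 2.64% of all tested probes fell and 2.09% rose. Sema7a, a membrane semaphorin, fell with Plxnd1 in cKO CD8 SP (-2.19, limma adjusted p = 0.00317) and in cKO CD4 SP (-2.56, limma adjusted p = 8.22e-04), each relative to cKO DP cells. The coreceptor Nrp1 fell in cKO CD4 SP relative to cKO DP cells (-2.09, limma adjusted p = 0.00748) and was higher in cKO CD8 SP than in cKO CD4 SP (2.26, limma adjusted p = 0.00608). Sema4b (0.88, limma adjusted p = 0.0414) and Sema4f (1.59, limma adjusted p = 0.00341) rose in cKO CD4 SP relative to cKO DP cells. Sema4f was also called lower in cKO CD8 SP than in cKO CD4 SP cells.

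The closer relatives of the other genes held 1 called gene in each of 3 lists and 0 in the other 3, against 4.19% of all tested probes lower in cKO CD8 SP and 2.64% lower in cKO CD4 SP than in cKO DP cells. Of 9 measured genes of protein phosphatase 1 and its inhibitors, Ppp1r14b fell in CD4 SP relative to DP (-0.83, limma adjusted p = 0.0374) and was higher in CD8 SP than in CD4 SP (1.04, limma adjusted p = 0.0113). Of 5 relatives of Arpp21, R3hdm1 fell in CD8 SP (-1.52, limma adjusted p = 0.00656). Of 7 nucleotidases, Nt5c2 fell in CD4 SP, where no cKO array detected it (limma adjusted p = 0.0437). The 9 measured aquaporins, 7 DYRK and HIPK kinases and 6 dynein light chains gave 0 calls in CD8 SP against DP, CD4 SP against DP and CD8 SP against CD4 SP.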

How the data were processed

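RNA of sorted thymocytes was labelled as biotin cRNA from 200 ng and hybridised to Illumina mouse BeadChips, per the labels' protocols. For each array the authors' deposited bead file holds a linear, not normalized mean intensity of every probe and a detection p-value, whose method the sources used here do not state. The authors' deposited series matrix, an intensity normalized in a way not stated there, served as an alternative. Symbols came from the platform annotation, which gave 1 symbol for 35784 probes and none for 10453.

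In limma 3.58.1 (R 4.3.3) the background of the deposited intensity was removed with the aid of the detection p-value, 16 was added as an offset, and arrays were quantile normalized and transformed to log2. Figures used matplotlib 3.10.9. A probe was tested if 3 or more arrays had a detection p-value below 0.05. One fit held all 18 arrays with a mean per group (12 residual degrees of freedom). Moderated tests were adjusted by Benjamini-Hochberg over all 26676 tested probes, with 0.05 as the threshold. The fit was tested on simulated data. Among several tested probes of a gene, the one of highest average log2 signal (the brightest) stands for it. ± is the standard error of a difference or, where marked, the SD of 3 arrays. Precision is limited by the number of arrays.

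All members and probes are described. Named besides are the 10 genes most correlated with the members and 5 with Endou, neighbouring genes, and called genes of related lists. The members and lists were chosen with earlier results of these data known. Gene order and promoters came from RefSeq tables of GRCm38.p6. Per the file headers a label number is 1 BeadChip shared by all 6 groups, so the number pairs arrays. Residuals of same-numbered arrays correlated at a median of 0.0463 (-0.149 to 0.314 over 45 pairs). Alternatives were no background correction, an offset of 50, median scaling, the authors' matrix, no filter, a filter of 6 arrays, trend and robust variance, the chip as a block, the compared groups alone, and leaving out each array.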

Additional observations from a re-analysis of the deposited data

How the results depend on the processing

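The counts of called member probes held over 27 alternatives. Leaving out 1 array gave 14 to 15 calls for cKO CD8 SP against cKO DP, 15 to 16 for cKO CD4 SP against cKO DP and 8 to 10 for cKO CD8 SP against cKO CD4 SP. The other 9 settings gave 13 to 16, 15 to 17 and 6 to 10, the 6 in a fit on the compared groups alone. The comparisons of cKO with wt gave 0 calls under all 27. Of 21 calls of brightest probes, 19 passed under every alternative, and the exceptions were Dyrk1b and Ppp1r1c in cKO CD8 SP against cKO CD4 SP. With the chip as a replicate block the 3 counts were 16, 16 and 10, and the calls of Rapgef3, Nt5dc2 and Arpp21 given above were gained. Rapgef3 in CD8 SP against DP also passed without background correction (limma adjusted p = 7.95e-06), and Nt5dc2 did so (0.00399) within a range of 0.00399 to 0.239. With no background correction the differences of all 9 brightest probes from cKO DP shrank, as given above, and the authors' matrix gave like values (Endou in cKO CD4 SP against cKO DP -3.02 and -2.91). Dyrk1b in that comparison was called (-0.66 and -0.67 in these settings). Median scaling moved the median of all probes in CD8 SP against DP to 0.12. Reversals of sign were confined, among member probes in the 3 comparisons between cKO populations, to dim or flat probes without a call in the comparison concerned. Leaving out 1 array, Ppp1r1c ILMN_1240956 ranged from -0.0357 to 0.513 in CD8 SP against DP, from -0.0991 to 0.450 in CD4 SP against DP and from -0.107 to 0.220 in CD8 SP against CD4 SP (-0.000923 in the authors' matrix). Ppp1r1c ILMN_1253830 ranged from -0.151 to 0.415 in CD4 SP against DP, and Ppp1r1c ILMN_2555562 from -0.370 to 0.399 in CD8 SP against CD4 SP (0.00869 with median scaling). Dyrk1b ILMN_3129762 ranged from -0.440 to 0.1995 in CD8 SP against DP (0.0218 with median scaling). Dyrk1b ILMN_2705642 ranged from -0.139 to 0.265 in CD8 SP against CD4 SP (-0.0230 without background correction, -0.0213 in the authors' matrix). The causes were not tested. Probes near background give bounds only, and 3 arrays per group limit what could be called.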
